A study of Homo sapiens with 192 samples.

Results

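A set of 10 genes used as markers of the epithelial-mesenchymal transition (EMT) was followed across 4 human colorectal cancer cell lines grown in 2D or in 3D. The genes are CDH1, CDH17, EPCAM, VIM, FN1, ZEB1, ZEB2, SNAI1, SNAI2 and TWIST1, and all 10 were matched by Ensembl gene identifier among the 58243 identifiers of the gene count files. The lines were HT29 and LS513, which are microsatellite stable, and HCT116 and LS174T, which are microsatellite instable. Each is an established line derived from a colorectal tumor. The 3D cultures are labelled as layers. Every line gave 3 libraries of polyadenylated RNA from 2D growth and 3 from 3D growth, so that 8 groups of 3 libraries were available. No drug, gene deletion or other treatment separated the groups, and the culture format was the only factor within a line. HCT116 was kept in another medium than the other lines, so line and medium cannot be told apart for it.

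The EMT is a switch between epithelial cells, which are held to their neighbors by cadherin junctions, and mesenchymal cells, which are motile and lay down matrix. Transcription factors of the SNAI, ZEB and TWIST families bind E-box motifs and repress epithelial genes such as CDH1, whereas vimentin and fibronectin are classical products of the mesenchymal state. The miR-200 family of microRNAs targets ZEB1 and ZEB2 transcripts, and the ZEB proteins repress the miR-200 genes in turn. The question asked here was how strongly each marker was expressed in each line, and which markers changed when cells were moved from 2D to 3D growth.

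The libraries held between 18723942 and 34277421 counts, with a median of 30777613. The lowest total belonged to HT29 2D replicate 3. Levels are given as CPM, the count scaled to a library of 1e+06 counts, after scaling by the trimmed mean of M-values (TMM), as mean ± SD over n = 3 libraries, and per kilobase (kb) of exon where genes are compared with each other. A gene was called detected in a group when each of its 3 libraries held more than 3 counts, a floor between 0.0853 and 0.164 CPM that covers counting error only. Differences were tested with edgeR's quasi-likelihood test on all 19387 genes that passed the count filter, and p-values adjusted by Benjamini-Hochberg over all of these genes are called adjusted p. Nothing in the labels says that the 3 libraries came from separate cultures, so p-values measure the spread between these samples, which may be technical. Of 8 colorectal epithelium markers, 7 or 8 were detected in each group, with summed levels of 3454 to 17932 CPM per library. Fibroblast markers were sparse, with 1 or 2 of 9 detected in a group, a summed level of at most 22.1 CPM and COL1A2 at 0 in all libraries. The endothelial markers summed to at most 3.19 CPM, and the leukocyte markers to at most 17.7 CPM, in HT29 3D, with CD3E at 0 in all libraries. Between growth conditions, FAP was the only fibroblast marker called (lower in 3D in LS513), and the endothelial markers TEK (HT29) and VWF (LS513 and HCT116) and the leukocyte marker CD14 (HT29) were higher in 3D. Their part in the results was not tested.

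The 10 genes differed in the number of groups in which they were detected. CDH1, EPCAM and SNAI1 were detected in all 8 groups, CDH17 in 6 and FN1 in 5. VIM and ZEB1 were detected in 3 groups, SNAI2 and TWIST1 in 2 (both of them HCT116), and ZEB2 in none. Summed per kb, the epithelial members CDH1, CDH17 and EPCAM reached between 123 ± 7.49 CPM per kb in HCT116 2D and 877 ± 38.3 CPM per kb in LS513 3D. VIM and FN1 together reached at most 2.33 ± 0.224 CPM per kb, in HCT116 3D, and were at 0 in LS174T 3D. In no library did VIM and FN1 exceed 1.98% of the summed level of these 5 genes. Exon lengths take in all transcripts, 17315 bases for FN1 and 5158 for VIM, so the level per kb of FN1 is a low estimate.

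**Figure D1:**
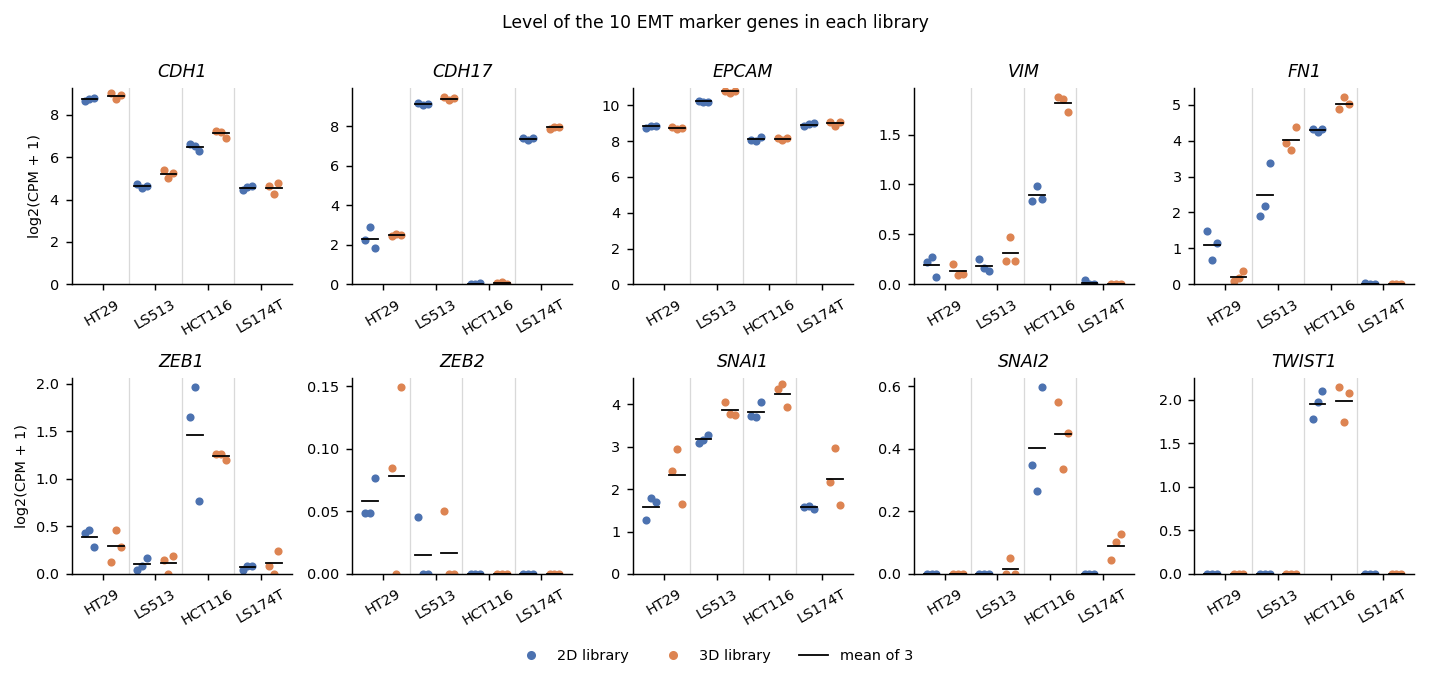
Level of each gene in the 24 libraries as log2(CPM + 1), with a separate vertical scale in each panel. Blue points are 2D libraries, orange points are 3D libraries and black lines are the means of 3 libraries. TWIST1 lies at 0 in the 18 libraries that are not HCT116, and CDH1, EPCAM and SNAI1 lie above 0 in all 24.

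CDH1 encodes E-cadherin, the calcium-dependent adhesion receptor of epithelial adherens junctions. The gene lies on chromosome 16 at 68737225 to 68835548 on the plus strand (GRCh38, GENCODE 29). HT29 held 11701, 12391 and 8108 counts in 2D and 17284, 12460 and 13663 in 3D. HCT116 held 3264, 3164 and 2410 counts in 2D and 4548, 4489 and 3548 in 3D. In HCT116 each 3D library exceeded each 2D library, and in HT29 the CPM ranges of 2D and 3D overlapped.

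LS513 held 799, 733 and 750 counts of CDH1 in 2D and 1161, 897 and 1066 in 3D, again without overlap. LS174T held 698, 828 and 809 counts in 2D and 789, 494 and 873 in 3D, and these ranges overlapped. CDH1 was therefore higher in 3D in LS513, where it went from 23.9 ± 1.79 to 36.6 ± 4.53 CPM (log2 fold change 0.62, SE 0.13, adjusted p = 0.0014). CDH1 was likewise higher in 3D in HCT116, from 89.0 ± 10.8 to 139 ± 17.7 CPM (log2 fold change 0.64, SE 0.13, adjusted p = 6.1e-04). No change passed the test in HT29 (log2 fold change 0.19, 95% interval -0.07 to 0.45, adjusted p = 0.25) or in LS174T (0.02, 95% interval -0.26 to 0.29, adjusted p = 0.98).

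Across lines in 2D, CDH1 was highest in HT29 at 424 ± 21.6 CPM, followed by HCT116 at 89.0 CPM. HT29 exceeded HCT116 4.76-fold (adjusted p = 3.5e-13) and HCT116 exceeded LS174T 3.90-fold (adjusted p = 4.9e-12). LS513 and LS174T, at 23.9 and 22.8 CPM, did not differ beyond their spread (log2 fold change 0.07, 95% interval -0.21 to 0.34, adjusted p = 0.7). In 3D the order by mean was HT29, HCT116, LS513 and LS174T, at 483, 139, 36.6 and 23.0 CPM, and the library ranges of neighbors in that order did not overlap.

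CDH17 encodes liver-intestine cadherin, a cadherin of the intestinal epithelium that lacks the catenin-binding tail of classical cadherins. It lies on chromosome 8 at 94127171 to 94217303 on the minus strand. LS513 held 18407, 18201 and 17813 counts in 2D and 20161, 18026 and 19893 in 3D. LS174T held 5767, 5492 and 5645 counts in 2D and 7667, 6935 and 8202 in 3D. In LS174T the 3D libraries lay above the 2D libraries, and on the CPM scale the same held for LS513.

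HT29 held 109, 186 and 46 counts of CDH17 in 2D and 150, 138 and 127 in 3D. HCT116 held 0, 0 and 1 counts in 2D and 1, 2 and 0 in 3D, which is at or under the floor in each library. In LS174T, CDH17 rose from a mean of 165 CPM (156 to 172) to 247 CPM (235 to 253) in 3D (log2 fold change 0.58, SE 0.15, adjusted p = 0.0079). In LS513 the means were 569 ± 21.6 and 679.9 ± 35.8 CPM, and the difference did not pass the test (log2 fold change 0.26, 95% interval -0.05 to 0.56, adjusted p = 0.22). In HT29 the log2 fold change was 0.10 (adjusted p = 0.74). Without HT29 2D replicate 2, which held 186 counts, it was 0.56 with an adjusted p of 0.0091, and without 2D replicate 3 it was -0.10.

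CDH1 and CDH17 were abundant in different lines. Per kb of exon, CDH17 made up 97.4% ± 0.0944 of the summed level of both cadherins in LS513 2D and 92.0% ± 0.830 in LS174T 2D. The share was 1.56% ± 0.721 in HT29 2D and 0.0219% ± 0.0379 in HCT116 2D. In 3D these shares were 96.7% ± 0.231 in LS513, 94.4% ± 1.10 in LS174T, 1.51% ± 0.191 in HT29 and 0.0351% ± 0.0352 in HCT116. The cadherin with the higher level per kb was thus the same in all libraries of a line, in 2D and in 3D. In 2D, CDH17 in LS513 exceeded LS174T 3.44-fold (adjusted p = 3.9e-10), and HT29 lay below LS174T (log2 fold change of HT29 over LS174T -5.25, adjusted p = 3.7e-17).

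**Figure D2:**
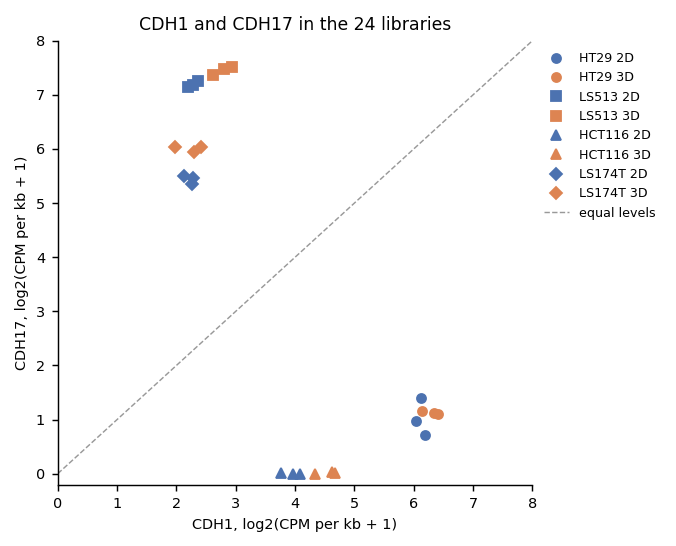
CDH1 (horizontal) and CDH17 (vertical) in the 24 libraries, each as log2(CPM per kb of exon + 1). Symbols mark the line, color marks 2D (blue) or 3D (orange) and the dashed line marks equal levels. LS513 and LS174T lie above the line of equal levels, HT29 and HCT116 below it.

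EPCAM encodes the epithelial cell adhesion molecule, a surface glycoprotein of simple epithelia and of most carcinomas. It lies on chromosome 2 at 47345158 to 47387601 on the plus strand and was the most abundant member per kb in each of the 8 groups. LS513 held 38267, 38853 and 37429 counts in 2D and 50391, 47051 and 52416 in 3D, so that the groups did not overlap. EPCAM rose in 3D in LS513, from 1197 ± 30.4 to 1754 ± 74.7 CPM (log2 fold change 0.55, SE 0.08, adjusted p = 4e-05).

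In the other lines EPCAM did not pass the test. HT29 held 12400, 13526 and 8489 counts in 2D and 14635, 11827 and 11539 in 3D, with means of 452 ± 23.1 and 423 ± 16.7 CPM. HCT116 held 8695, 8938 and 9310 counts in 2D and 8636, 8005 and 8487 in 3D, with means of 273 ± 22.6 and 277 ± 13.9 CPM. LS174T held 15402, 17379 and 17116 counts in 2D and 17764, 12509 and 17713 in 3D, with means of 487 CPM (461 to 507) and 515 CPM (456 to 545). The 95% interval of the log2 fold change ran from -0.27 to 0.08 in HT29, from -0.15 to 0.20 for HCT116 and from -0.09 to 0.25 for LS174T, all of them below the estimate of 0.55 in LS513. In 2D the level in LS513 exceeded LS174T 2.46-fold (adjusted p = 3.2e-12), LS174T and HT29 did not differ beyond their spread (adjusted p = 0.26), and HT29 exceeded HCT116 1.66-fold (adjusted p = 5.1e-08).

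FN1 encodes fibronectin, a matrix glycoprotein bound by integrins, and lies on chromosome 2 at 215360440 to 215436172 on the minus strand. HT29 held 53, 17 and 22 counts in 2D and 2, 4 and 8 in 3D. LS513 held 85, 117 and 296 counts in 2D and 406, 348 and 569 in 3D. FN1 thus moved in opposite directions in these lines, with no overlap between 2D and 3D libraries in either.

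In HT29, FN1 fell from 1.20 ± 0.616 to 0.163 ± 0.117 CPM (log2 fold change -2.91, SE 0.66, adjusted p = 0.0014), and in 3D it was no longer detected by the count rule. Leaving out 1 HT29 library at a time moved this value between -3.55, without 3D replicate 4, and -2.35, without 2D replicate 1. In LS513, FN1 rose from 5.22 ± 3.63 to 15.5 ± 3.81 CPM (log2 fold change 1.57, SE 0.33, adjusted p = 0.0016). The LS513 2D libraries were uneven, and without 2D replicate 3, which held 296 counts, the log2 fold change was 2.30 (adjusted p = 1.4e-05).

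HCT116 had the highest FN1 levels, with 628, 620 and 590 counts in 2D and 854, 1100 and 935 in 3D. The 3D libraries all lay above the 2D libraries, at 31.9 ± 3.81 against 18.6 ± 0.647 CPM, but the difference did not pass the test over all genes (log2 fold change 0.78, 95% interval 0.13 to 1.43, adjusted p = 0.065). LS174T held 1, 0 and 0 counts in 2D and none in 3D. Across lines in 2D, LS513 lay below HCT116 (log2 fold change of LS513 over HCT116 -1.83, SE 0.33, adjusted p = 4.6e-05), and HT29 lay below LS513 (log2 fold change of HT29 over LS513 -2.11, SE 0.40, adjusted p = 1e-04).

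VIM encodes vimentin, the intermediate filament protein of mesenchymal cells, and lies on chromosome 10 at 17228259 to 17237593 on the plus strand. HCT116 held 26, 34 and 25 counts in 2D and 80, 80 and 69 in 3D. The groups did not overlap, and VIM rose from 0.855 ± 0.107 to 2.53 ± 0.192 CPM (log2 fold change 1.56, SE 0.29, adjusted p = 4.1e-04). The other lines were at or near the floor, with 1 to 6 counts per library in HT29, 3 to 11 in LS513 and 0 or 1 in LS174T. LS513 was detected in 3D only, with 6, 4 and 3 counts in 2D and 5, 11 and 5 in 3D (log2 fold change 0.84, adjusted p = 0.23). Of the VIM exon bases, 24.4% are shared with the opposite-strand genes VIM-AS1 and AL133415.1, which held at most 9 and 2 counts in any library. The libraries were strand-specific, but whether counting used the strand is not given in the sources used here, so reads of these genes in the shared bases cannot be told apart.

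The promoter stretches of FN1 and VIM are shown because these were the mesenchymal structural genes that moved with growth. They are RefSeq sequences of GRCh38.p14, written 5′ to 3′ on the gene's strand and end before the first base of the GENCODE gene. For FN1 the stretch is chr2:215436173-215436318 on the minus strand, and capitals mark a cyclic AMP response element (TGACGTCA) and a CCAAT box.
FN1 promoter: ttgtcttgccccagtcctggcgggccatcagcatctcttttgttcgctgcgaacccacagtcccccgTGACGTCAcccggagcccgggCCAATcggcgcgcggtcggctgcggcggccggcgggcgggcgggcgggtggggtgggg
For VIM the stretch is chr10:17227991-17228240 on the plus strand, and capitals mark a GC box (GGGCGG).
VIM promoter: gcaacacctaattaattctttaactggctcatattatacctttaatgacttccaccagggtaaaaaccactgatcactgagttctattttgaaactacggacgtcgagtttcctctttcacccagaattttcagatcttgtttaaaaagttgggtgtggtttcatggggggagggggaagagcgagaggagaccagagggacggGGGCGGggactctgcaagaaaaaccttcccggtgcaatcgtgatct

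Motifs were searched on both strands in the 250 bases before each RefSeq start, in 35116 windows. TGACGTCA stood in 1.65% of windows, and in FN1 it began at position -183 from the start. CCAAT or its complement ATTGG stood in 32% of windows, and in FN1 it began at position -162. GGGCGG or CCGCCC stood in 42.6% of windows, with 6 matches in FN1, some of them overlapping, and 1 in VIM. The E-box CAGGTG or CACCTG, to which SNAI and ZEB proteins bind, stood in 17.5% of windows and in neither the FN1 nor the VIM window.

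SNAI1 encodes Snail, a zinc finger repressor of CDH1, and lies on chromosome 20 at 49982999 to 49988886 on the plus strand. Among the 5 transcription factors, SNAI1 made up at least 79.3% of the summed level per kb in each of the 24 libraries. HT29 held 41, 72 and 41 counts in 2D and 144, 192 and 59 in 3D. LS174T held 67, 72 and 64 counts in 2D and 114, 186 and 67 in 3D. In HT29 the lowest 3D library, at 2.14 CPM, lay below the highest 2D library, at 2.48 CPM, and in LS174T the lowest 3D library, at 2.06 CPM, lay just above the highest 2D library, at 2.05 CPM.

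The mean level of SNAI1 was higher in 3D in each of the lines. In HT29 it rose from 2.04 ± 0.564 to 4.37 ± 2.25 CPM (log2 fold change 1.11, SE 0.36, adjusted p = 0.016). That call was lost without 2D replicate 1 (0.93, adjusted p = 0.072) and without 3D replicate 3 (0.74, adjusted p = 0.12). In LS174T it rose from 1.98 ± 0.0779 to 4.11 ± 2.42 CPM (log2 fold change 1.04, SE 0.35, adjusted p = 0.035). The LS174T call was lost without any of the 3 2D libraries (adjusted p = 0.083, 0.08 and 0.097) and without 3D replicate 2, which held 186 counts (log2 fold change 0.50, adjusted p = 0.37).

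LS513 held 232, 264 and 272 counts of SNAI1 in 2D and 446, 358 and 360 in 3D. The groups did not overlap, at 8.02 ± 0.577 and 13.6 ± 1.80 CPM, and the test was not passed (log2 fold change 0.77, 95% interval 0.14 to 1.39, adjusted p = 0.071). HCT116 held 399, 413 and 484 counts in 2D and 583, 647 and 426 in 3D, with overlapping CPM ranges (log2 fold change 0.47, 95% interval -0.14 to 1.09, adjusted p = 0.25). A test of the difference in growth effect between the lines was not passed for SNAI1 (adjusted p = 0.68). In 2D, LS513 lay below HCT116 (log2 fold change -0.71, SE 0.30, adjusted p = 0.041), a call that was lost without LS513 2D replicate 1, 2 or 3 (adjusted p = 0.11, 0.086 and 0.063) and without HCT116 2D replicate 1 or 3 (0.052 and 0.15). HT29 and LS174T did not differ beyond their spread (adjusted p = 0.96). These 2 lines held the lowest SNAI1 levels in 2D and in 3D.

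TWIST1 encodes a basic helix-loop-helix factor and lies on chromosome 7 at 19020991 to 19117672 on the minus strand. HCT116 held 80, 102 and 102 counts in 2D and 103, 72 and 96 in 3D. All 18 libraries of the other lines held 0 counts. Against a floor of 3 counts per library, TWIST1 in HCT116 2D, at 2.87 ± 0.431 CPM, was at least 17.5-fold higher than HT29, at least 29.8-fold higher than LS513 and at least 32.0-fold higher than LS174T in 2D. Growth made no difference that passed the test in HCT116 (log2 fold change 0.06, 95% interval -0.50 to 0.62, adjusted p = 0.92).

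SNAI2 encodes Slug, the relative of Snail, and lies on chromosome 8 at 48917604 to 48921740 on the minus strand. HCT116 held 9, 7 and 16 counts in 2D and 14, 8 and 11 in 3D, at 0.329 ± 0.164 and 0.365 ± 0.102 CPM (adjusted p = 0.85 between them). HT29 held none in 2D or 3D, and LS513 held 1 count in a single 3D library. LS174T held none in 2D and 1, 2 and 3 counts in 3D. The fit gave that last difference an adjusted p of 0.043, but each library was at or under the floor of 3 counts, so it was not counted as a change and no fold is given.

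ZEB1 encodes a zinc finger and homeobox repressor and lies on chromosome 10 at 31318495 to 31529814 on the plus strand. HCT116 held 71, 101 and 22 counts in 2D and 42, 43 and 39 in 3D. HT29 held 10, 11 and 4 counts in 2D and 3, 11 and 6 in 3D. LS513 and LS174T held between 0 and 6 counts per library, so that HCT116 alone exceeded 20 counts.

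In 2D the ZEB1 level was 1.92 ± 1.12 CPM in HCT116 and 0.314 ± 0.0837 CPM in HT29 (log2 fold change of HT29 over HCT116 -2.56, SE 0.51, adjusted p = 1.1e-04). HT29 exceeded LS513, where ZEB1 was not detected, with an adjusted p of 0.025, and this call was lost without HT29 2D replicate 1 or 2 (adjusted p = 0.061 and 0.075) and without LS513 2D replicate 1 or 2 (0.088 and 0.069). ZEB1 did not change with growth beyond the spread in HCT116 (log2 fold change -0.49, 95% interval -1.37 to 0.38, adjusted p = 0.41). Without HCT116 2D replicate 3, which held 22 counts, the value was -0.91 (adjusted p = 0.089), and without 2D replicate 2, which held 101, it was -0.07 (adjusted p = 0.98). ZEB1-AS1, which shares 4.23% of the ZEB1 exon bases on the opposite strand, held 29 to 110 counts per library.

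ZEB2, the relative of ZEB1, lies on chromosome 2 at 144364364 to 144524583 on the minus strand. It held 10 counts in all 24 libraries together, at most 3 in any of them, and 0 in 17 libraries. It did not pass the count filter and was not tested.

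Because the miR-200 family and the ZEB genes repress each other in epithelial cells, the loci of the family were examined beside ZEB1, a choice made with the values in view. Whether the measured levels depend on each other was not tested. The mature sequences below are from RefSeq, with the seed (bases 2 to 8) in capitals. The 5 microRNAs carry 2 seeds. The following 3 share the seed AAUACUG, and miR-200b-3p and miR-429 lie together on chromosome 1, at 1167160 to 1167181 and 1169055 to 1169076.
hsa-miR-200b-3p: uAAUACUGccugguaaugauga
hsa-miR-200c-3p: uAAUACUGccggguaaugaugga
hsa-miR-429: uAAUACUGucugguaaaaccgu
The other 2 share the seed AACACUG, and lie on chromosome 1 at 1167916 to 1167937 and on chromosome 12 at 6964155 to 6964176.
hsa-miR-200a-3p: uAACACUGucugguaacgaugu
hsa-miR-141-3p: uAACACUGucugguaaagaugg

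The sites that pair with these seeds, CAGTATT and CAGTGTT, were counted on the transcript strand in the longest annotated 3′ untranslated region of each ZEB gene. ZEB1 held 6 sites for the seed AAUACUG and 3 for AACACUG within 2549 bases, and ZEB2 held 5 and 4 within 5370 bases. Among 4390 genes with at least as long a 3′ untranslated region, 48.7% held any such site in their first 2549 bases, and 0.0456% held as many as the 9 of ZEB1, which is itself among them. The first site of each kind is shown with its surroundings, with the bases that pair with the seed in capitals.
ZEB1 site for AAUACUG: tttatcttatCAGTATTatcac
ZEB1 site for AACACUG: tcatcagaatCAGTGTTtgtga
ZEB2 site for AAUACUG: taccatacatCAGTATTtttat
ZEB2 site for AACACUG: aaattttgtaCAGTGTTaaggc

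Mature microRNAs are not measured in libraries of polyadenylated RNA, so the counts at these loci are reads of longer transcripts across the annotated hairpins. MIR429 held 32, 39 and 20 counts in HT29 2D, 27, 39 and 30 in LS513 2D and 27, 31 and 21 in LS174T 2D. HCT116 held 1, 1 and 2 counts in 2D and 2, 1 and 0 in 3D. HCT116, the line with the highest ZEB1 level, thus held the fewest MIR429 counts, in 2D and in 3D.

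In 2D, MIR429 stood at 1.18 ± 0.142 CPM in HT29, 0.999 ± 0.160 in LS513, 0.770 ± 0.134 in LS174T and 0.0410 ± 0.0200 in HCT116. HCT116 differed from HT29 (adjusted p = 6.2e-06), from LS513 (1.3e-05) and from LS174T (5.7e-05), whereas the other 3 lines did not differ from each other beyond their spread (adjusted p = 0.69, 0.27 and 0.53). MIR200A, at the same locus, held 0 to 3 counts per library in HCT116 and 2 to 20 elsewhere, and HCT116 differed from HT29 (adjusted p = 0.0012), LS513 (0.003) and LS174T (0.02) in 2D. MIR200CHG, the host gene of the chromosome 12 locus, showed no such split, with 42 to 62 counts in HCT116 2D and adjusted p-values of 0.89, 0.83 and 0.43 against the other lines. Growth changed MIR429 in none of the lines by the test (adjusted p = 0.28 to 0.94), and MIR200CHG rose in 3D in HCT116 (log2 fold change 0.90, SE 0.29, adjusted p = 0.021).

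**Figure D3:**
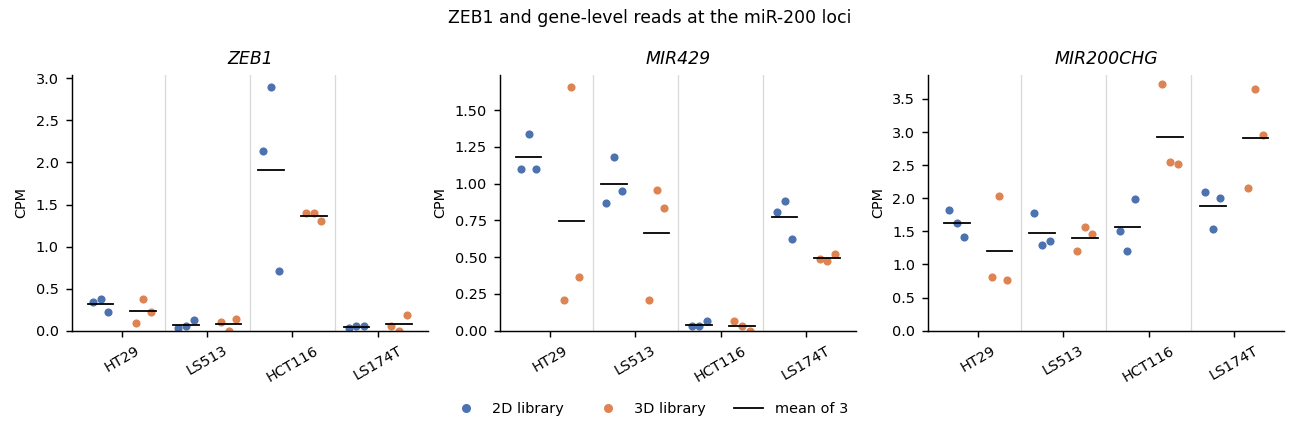
Level in CPM of ZEB1, MIR429 and MIR200CHG in the 24 libraries, with 2D in blue, 3D in orange and the mean of 3 libraries as a black line. HCT116 has the highest ZEB1 and the lowest MIR429 levels in 2D and 3D, while MIR200CHG overlaps between the 4 lines in 2D.

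The ZEB1 window that lies before the annotated gene is shown for its E-box. It is chr10:31318167-31318416 on the plus strand (RefSeq, GRCh38.p14), and capitals mark the single CAGGTG of this window, which begins at position -57 from the RefSeq start. ZEB1 has 7 RefSeq windows, with 3 matches of this E-box between them, and 17.5% of all windows hold one. Nothing particular to ZEB1 is read from the match.
ZEB1 promoter: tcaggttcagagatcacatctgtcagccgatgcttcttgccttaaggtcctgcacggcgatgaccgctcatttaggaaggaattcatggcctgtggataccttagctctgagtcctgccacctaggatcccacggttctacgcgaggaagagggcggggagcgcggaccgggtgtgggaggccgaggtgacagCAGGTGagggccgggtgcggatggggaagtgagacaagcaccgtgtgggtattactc

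Most of the members that were called between growth conditions were higher in 3D. In HT29, 1 of the 6 members tested and detected was higher (SNAI1) and 1 was lower (FN1), where 21.1% of all tested genes were called higher and 19.6% lower. In LS513, 3 of 6 were higher (CDH1, EPCAM and FN1) and none was lower, against 13.7% and 9.90% of all genes. In HCT116, 2 of 8 were higher (CDH1 and VIM) and none was lower, against 16.8% and 12.3% of all genes. In LS174T, 2 of 4 were higher (CDH17 and SNAI1) and none was lower, against 13.1% and 9.15% of all genes. These shares are over all tested genes, whereas a member was counted only where it was detected in a compared group. Among tested genes detected in the same way, the shares called higher and lower were 23.9% and 22.5% in HT29, 16.1% and 11.8% in LS513, 18.5% and 13.8% in HCT116 and 14.6% and 10.4% in LS174T. With 4 to 8 members counted in a line, the counts are a description, and nothing particular to the members is read from them.

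**Figure D4:**
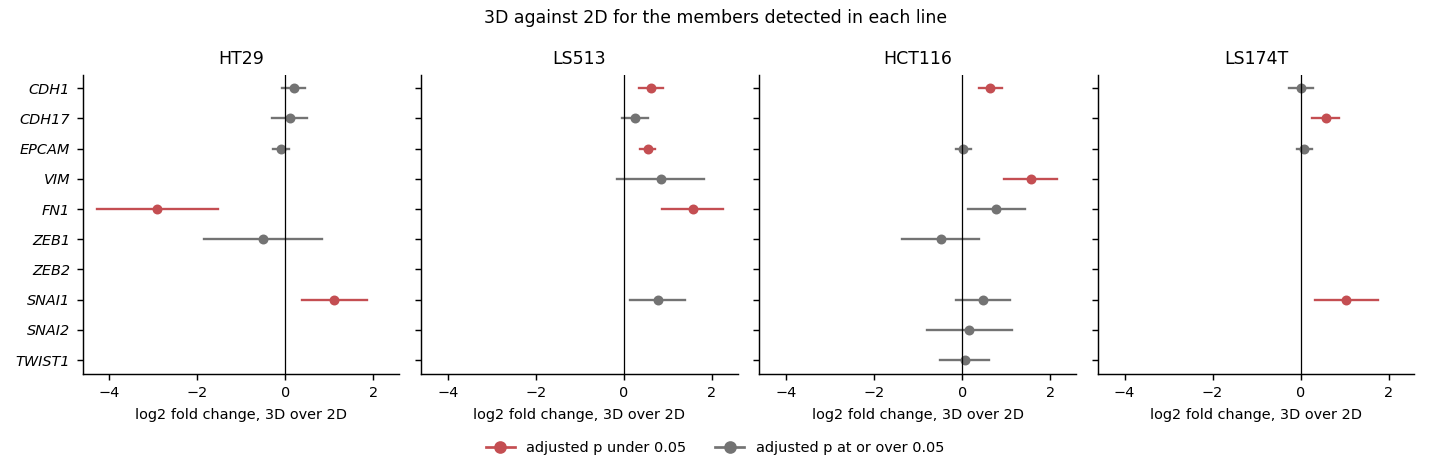
Log2 fold change of 3D over 2D with its 95% interval for the members detected in at least one growth condition of each line. Red marks an adjusted p under 0.05 and gray the rest. FN1 lies at -2.91 in HT29 and at 1.57 in LS513, and the estimates for SNAI1 lie above 0 in all 4 lines.

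The growth effect itself differed between lines for 3 of the 9 members tested, where 17.1% of all genes did. These were FN1 (adjusted p = 0.0011), lower in 3D in HT29 and higher in LS513, EPCAM (adjusted p = 0.0015), higher in LS513, and CDH1 (adjusted p = 0.03), higher in LS513 and HCT116. Between pairs of lines, the growth effect on EPCAM in LS513 differed from that in HT29 (adjusted p = 5.6e-04), HCT116 (0.0093) and LS174T (0.023), and that on FN1 in HT29 differed from that in LS513 (2.2e-04) and HCT116 (0.0021). No pair passed for CDH1, where the lowest adjusted p was 0.05, between HCT116 and LS174T. The CDH1 call was lost in 14 of the 24 fits that left out 1 library, with an adjusted p of up to 0.09, and these were libraries of all 8 groups. The EPCAM difference between LS513 and LS174T was lost in 6 such fits, with an adjusted p of up to 0.071. VIM, which rose in HCT116, did not pass across the 4 lines (adjusted p = 0.058), but passed without HT29 2D replicate 3 (0.04) or LS513 3D replicate 2 (0.045). Between pairs, the fit gave its growth effect in HT29 against that in HCT116 a log2 difference of -2.17 (SE 0.65, adjusted p = 0.043). That call was lost in 13 of the 24 fits that left out 1 library, with an adjusted p of up to 0.22. VIM was not detected in HT29, with 1 to 6 counts per library in 2D and 2 to 5 in 3D. The difference therefore enters only through HCT116, and no growth effect on VIM is read for HT29.

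Between lines in 2D, most members counted were called, as were most of all tested genes. HT29 and LS513 differed in 6 of 6 members detected in either line, against 60.6% of all genes, and LS513 and LS174T in 4 of 5, against 57.6%. HT29 and LS174T differed in 4 of 6 members, against 64.6% of all genes. HCT116 differed in 9 of 9 members from HT29, from LS513 and from LS174T, against 68.8%, 68.3% and 68.3% of all genes. Among tested genes detected in either line of a pair, the shares ran from 62.0% (LS513 and LS174T) to 72.5% (HT29 and HCT116). VIM, SNAI2 and TWIST1 entered each HCT116 count only through HCT116, where they were detected and in the other line were not. The same held for ZEB1 against LS513 and LS174T and for FN1 against LS174T. CDH17 entered the HCT116 counts only through the other line. In the pairs without HCT116, ZEB1 entered only through HT29, and FN1 entered the LS174T pairs only through HT29 or LS513. Nothing is therefore read from 9 of 9 or from the other counts. HCT116 had the lowest EPCAM and CDH17 levels and the highest FN1, VIM, SNAI1, SNAI2, TWIST1 and ZEB1 levels of the 4 lines in 2D, and its CDH1 level lay between that of HT29 and those of LS513 and LS174T.

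Related genes were followed in 8 further lists that hold none of the 10 members. CDH2 and CDH11 stand in both the cadherin and the mesenchymal list. The counts below are to be read against the shares of all tested genes called higher and lower, which were 21.1% and 19.6% in HT29, 13.7% and 9.90% in LS513, 16.8% and 12.3% in HCT116 and 13.1% and 9.15% in LS174T, and no list was tested against the other genes. The epithelial surface list (ST14, SPINT1, SPINT2, PRSS8, RAB25, AP1M2, CDS1 and MAL2) had 5, 6, 6 and 4 of its 8 genes higher in 3D in HT29, LS513, HCT116 and LS174T, and none lower in any line. Its median log2 fold change was 0.31, 0.54, 0.58 and 0.26 in these lines, beside medians over all genes of 0.00, 0.00, 0.01 and 0.02. PRSS8, the membrane protease prostasin, was higher in all 4 lines. In HCT116 it stood at 27.2 ± 3.48 CPM in 2D and 66.2 ± 9.65 CPM in 3D (log2 fold change 1.28, SE 0.12, adjusted p = 4.8e-08). In LS513 the means were 209.6 ± 16.7 and 407 ± 66.0 CPM (adjusted p = 2.2e-06), in HT29 80.8 ± 5.19 and 152 ± 7.66 CPM (adjusted p = 2.6e-06) and in LS174T 56.3 ± 2.89 and 88.1 ± 3.46 CPM (adjusted p = 4.6e-04).

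Of 13 tight junction genes other than claudins, 5 were higher and 2 lower in HT29, and 6, 6 and 3 were higher with none lower in LS513, HCT116 and LS174T. TJP3, the scaffold ZO-3, was among the higher genes in all 4 lines and rose in HCT116 from 20.5 ± 3.86 to 58.5 ± 15.1 CPM (log2 fold change 1.51, SE 0.16, adjusted p = 4.1e-07). Of 10 adherens junction genes, 1, 4, 3 and 2 were higher and 3, 2, 1 and 1 lower in HT29, LS513, HCT116 and LS174T, with medians of -0.22, 0.25, 0.08 and -0.04 on the log2 scale. These counts are too small to set apart from the shares of all genes. NECTIN4, a nectin adhesion receptor, was higher in all 4 lines and rose in HCT116 from 0.885 ± 0.170 to 7.18 ± 1.68 CPM (adjusted p = 1.7e-11). VCL, which encodes vinculin, fell in HT29 from 166 ± 5.83 to 78.0 ± 9.40 CPM (adjusted p = 3.1e-07).

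Of 8 desmosome genes, none was higher and 2 (DSP and PERP) were lower in HT29, where 19.6% of all genes were lower. In LS513 3 were higher and in HCT116 5, with none lower, and LS174T had 1 desmosome gene higher and 1 lower. The median log2 fold changes were -0.26, 0.18, 0.45 and -0.06 in HT29, LS513, HCT116 and LS174T, and the difference between lines was not tested for the list. DSC2, a desmosomal cadherin, rose in HCT116 from 77.5 ± 15.5 to 139 ± 8.47 CPM (adjusted p = 8.5e-05). It also rose in LS513, from 109 ± 5.38 to 168 ± 23.7 CPM (adjusted p = 0.0016). In LS174T, DSC2 was the desmosome gene called lower, from 50.9 ± 4.31 to 39.0 ± 7.88 CPM. Of 14 other cadherins, 10 were tested, and 4, 5, 2 and 3 were higher and 2, 1, 1 and 0 lower in HT29, LS513, HCT116 and LS174T. CDHR5, a protocadherin of the brush border, rose in HT29 from 8.74 ± 1.45 to 21.5 ± 1.42 CPM (adjusted p = 9.9e-06).

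Of 18 epithelial transcriptional and splicing regulators, 11 were higher and 4 lower in HT29, where more genes were called in all than in the other lines. The counts were 7 and 1 in LS513, 3 and 1 in HCT116 and 6 and 1 in LS174T. ELF3 and KLF4 were higher in all 4 lines. ELF3, an epithelial ETS factor, rose in HCT116 from 77.7 ± 12.9 to 251 ± 52.0 CPM (adjusted p = 3.1e-06). EHF, another ETS factor, was lower in HT29, LS513 and LS174T, and went from 246 ± 8.29 to 131 ± 38.7 CPM in HT29 (adjusted p = 0.0072).

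Of 15 other EMT transcription factors, 11 were tested, and 1, 0, 0 and 1 were higher and 4, 3, 1 and 1 lower in HT29, LS513, HCT116 and LS174T, with medians of -0.18, -0.24, -0.06 and -0.18 on the log2 scale. HMGA2, a chromatin protein that activates SNAI1 and TWIST1 in other systems, fell in HT29, with a log2 fold change of -1.70 (SE 0.22, adjusted p = 3e-06) and means of 14.0 ± 4.46 and 4.32 ± 0.636 CPM. It also fell in LS513, where the means were 7.29 ± 0.439 and 3.90 ± 1.44 CPM (adjusted p = 0.0053). Of 23 mesenchymal matrix and cytoskeleton genes, 19 were tested, and 4, 4, 4 and 6 were higher and 5, 1, 1 and 3 lower, with medians of -0.14, 0.21, 0.00 and 0.16 on the log2 scale. As for the other EMT transcription factors, no direction of the list is read from these counts. TNC, the matrix protein tenascin-C, fell in HT29, with a log2 fold change of -5.33 (SE 0.36, adjusted p = 3.7e-10) and means of 26.6 ± 14.4 and 0.653 ± 0.100 CPM. ITGA5, the alpha subunit of a fibronectin receptor, was higher in 3D in LS513, at 49.9 ± 11.9 against 12.9 ± 0.265 CPM (adjusted p = 1.1e-08), and rose in LS174T from 1.70 ± 0.102 to 5.18 ± 1.21 CPM (adjusted p = 3.9e-06). It was also called higher in HCT116, but not in HT29.

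**Figure D5:**
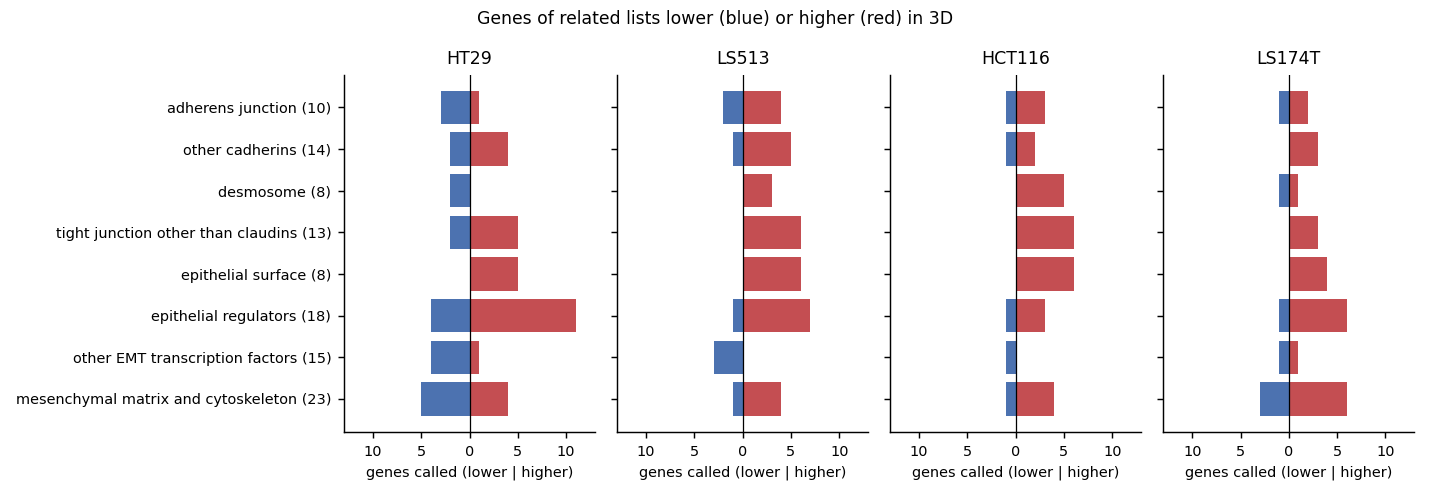
Number of genes called lower (blue, to the left) or higher (red, to the right) in 3D in 8 lists of related genes, by line, with the number of genes in each list in parentheses. The epithelial surface list has 4 to 6 genes higher and none lower in each line, and the desmosome list has 2 genes lower and none higher in HT29.

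Of the 8 colorectal epithelium markers, a list that includes EPCAM, 5 were higher and 1 was lower in 3D in HT29, and 6, 3 and 4 were higher with none lower in LS513, HCT116 and LS174T. KRT20, the keratin of differentiated intestinal epithelium, rose in LS174T from 0.817 ± 0.208 to 12.5 ± 2.77 CPM (adjusted p = 2.5e-11).

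For the members with at least 10 CPM in their highest group, the genes with the most similar pattern over the 24 libraries were taken by Pearson's r of log2(CPM + 1). The 24 points fall into 4 lines, so r mainly reflects differences between lines and is given as a description. CDH1 was followed most closely by ANXA10 and TGM2 (r = 0.991 for both), and CDH17 by IL20RA (0.995) and PIP5K1B (0.991). EPCAM was followed by GAU1 (0.981) and VILL (0.978), FN1 by BLVRA and FBXL2 (0.968 for both) and SNAI1 by YJU2 (0.953) and RNF25 (0.952).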

How the data were processed

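RNA was measured by sequencing of strand-specific polyadenylated libraries, each deposited as 8 tables of technical replicates (7 for HT29 3D replicate 4; the missing replicate was not analysed here). Per the labels, reads were demultiplexed with bcl2fastq 2.18.0.12, trimmed with Trim Galore 0.4.1, aligned with STAR and counted with HTSeq 0.5.3. The genome build is given as hg19 in the labels and as an Ensembl release of GRCh38 in the methods, and the files hold no coordinates. The deposited values are raw counts per gene and are not normalized. Strand and overlap settings of the counting are not given in the sources used here.

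Counts of technical replicates, which agreed within sampling noise (chi-square per degree of freedom 0.906 to 0.933), were summed per library, whereas libraries of a group differed beyond it (2.24 to 12.4). Gene names, positions and union exon lengths came from GENCODE 29, which held 57980 of 58243 identifiers. Exon lengths take in all transcripts, so levels per kb of genes with long minor transcripts (FN1, ZEB2) are low estimates. In R 4.3.3, edgeR 4.0.16 was fitted to all 24 libraries with 8 group coefficients, filterByExpr, TMM factors (0.894 to 1.12), robust dispersion and the quasi-likelihood test, and genes with an adjusted p under 0.05 were called. The fit was tested on simulated counts. Members were counted where tested and detected in a compared group. DESeq2 1.42.0 and other alternatives stand in the closing section. All 10 members are named, and from each list the gene with the widest change in each direction and line, with at least 1 CPM and no overlap, could be named. A gene of the epithelial surface list is not reported here and was left out of its counts. The members and lists were chosen with earlier results of these data known. Sequences came from RefSeq tables (GRCh38.p14), where FN1, VIM, ZEB1 and ZEB2 had promoter entries.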

Additional observations from a re-analysis of the deposited data

Results flagged for a closer look

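The growth effect differed between the 4 lines for 3 members in the interaction test of edgeR's quasi-likelihood fit. FN1 (adjusted p = 0.0011) had log2 fold changes of 3D over 2D of -2.91 in HT29, 1.57 in LS513 and 0.78 in HCT116, with at most 1 count per library in LS174T. EPCAM (adjusted p = 0.0015) had -0.10, 0.55, 0.02 and 0.08 in HT29, LS513, HCT116 and LS174T. CDH1 (adjusted p = 0.03) had 0.19, 0.62, 0.64 and 0.02 in the same order. Groups held 3 libraries each, too few for a test of single outlying libraries.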

How the results depend on the processing

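Each count of members called, the log2 fold change of each detected member between growth conditions and between lines in 2D, and the differences in growth effect named above were recomputed under the alternatives that could be fitted for them, and the cutoffs of the study were applied to the growth counts only. None of the values reversed a call. DESeq2 size factors, DESeq2 as the test and the inclusion of all genes with at least 1 count kept each count within 1.5 times the main one. With all genes, FN1 had far smaller adjusted p-values at near-equal log2 fold changes. In LS513 it had 2.1e-16 (1.56) against 0.0016 (1.57) in the main fit, and in HT29 3.9e-14 (-2.87) against 0.0014 (-2.91). EPCAM in LS513 hardly moved (2.7e-05 against 4e-05). The reason was not tested, and a pass with all genes alone is given no weight. For SNAI2 in HCT116, DESeq2 gave no adjusted p. Total counts in place of TMM, and technical replicates a to d alone, each left 1 of 4 members called in LS174T, where SNAI1 had an adjusted p of 0.057 and 0.071. The difference in growth effect for CDH1 was lost with total counts (0.092). With the 6 libraries of each line alone, 5 of 6 members were called in LS513, where CDH17 (0.032) and SNAI1 (0.0022) joined, and 1 in LS174T (SNAI1 0.12). FN1 in HCT116 passed in that fit (0.0012), with all genes (1.3e-04) and with technical replicates a to d (0.035). It did not pass with technical replicates e to h (0.096), DESeq2 size factors (0.064), total counts (0.12) or DESeq2 as the test (0.2). ZEB1 between HT29 and LS513 in 2D was lost with technical replicates e to h (0.38), and EPCAM between HT29 and LS174T passed with total counts (0.0053). The difference in growth effect on VIM between HT29 and HCT116 was lost with total counts (0.051), all genes (0.099), technical replicates a to d (0.29) or e to h (0.13) and the replicate block (0.38). That on EPCAM between LS513 and LS174T was lost with total counts (0.054), all genes (0.1) and the block (0.11), and between LS513 and HCT116 with the block (0.069). That on CDH1 between HCT116 and LS174T passed with all genes (0.019) and technical replicates a to d (0.048). The cutoffs of the study on the log2 fold change (under -0.5 or over 1.5) left 1 member called for HT29, 1 for LS513, 1 for HCT116 and 0 for LS174T. Leaving out 1 library at a time gave 1 to 3 members for HT29, 3 for LS513, 2 for HCT116, 1 to 2 for LS174T and 2 to 4 for the difference between lines. For the lines in 2D, it gave 5 to 6 members between HT29 and LS513, 8 to 9 between LS513 and HCT116, 4 for LS174T against HT29 and against LS513, and 9 for HCT116 against HT29 and against LS174T.

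The labels do not say whether equal replicate numbers pair 2D with 3D libraries. The deviations of same-numbered libraries from their group means correlated between -0.21 and 0.22. Those of differently numbered libraries correlated between -0.30 and 0.26. With so few libraries this does not settle whether they were paired. The HT29 libraries are numbered 1, 2 and 3 in 2D but 1, 3 and 4 in 3D. The block estimate for HT29 therefore rests only on the libraries numbered 1 and 3. With the replicate number as a block, 2 members were called for HT29, 4 for LS513, 3 for HCT116, 2 for LS174T and 3 for the difference between lines, and SNAI1 in LS513 (0.037) and FN1 in HCT116 (0.021) joined those called. The block could not be fitted for the 2D comparisons between lines. SNAI1 in LS513 also passed with all genes (2.7e-04). It did not pass with DESeq2 size factors (0.068), total counts (0.12), DESeq2 as the test (0.06) or technical replicates a to d (0.055) or e to h (0.067). For members whose counts lie near the floor of 3 counts, a difference could be missed at this depth, and a call there rests on few counts.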
